A study of Mus musculus with 7 samples.

Results

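The 10 genes described here encode collagen and laminin chains of basement membranes: Col4a1, Col4a2, Col4a5, Col15a1, Col18a1, Lama2, Lama4, Lamb1, Lamb2 and Lamc1. They were chosen by name, as 10 of the 54735 gene symbols counted, and all 10 had enough counts to be tested. RNA was sequenced from GFP+ cells that had been sorted from mouse hearts by flow cytometry, to compare populations of cardiac fibroblasts during growth after birth. Cells of PostnMCM;R26eGFP mice were collected at 7 days of age (Postn P7, 2 libraries). Cells of Tcf21MCM;R26eGFP mice were collected at 7 days (Tcf21 P7, 2 libraries) and at 30 days (Tcf21 P30, 3 libraries). MCM is MerCreMer, a recombinase that tamoxifen switches on, here in cells that use the Postn or the Tcf21 gene, and every group carried the R26eGFP reporter that the recombinase activates. All libraries came from males and females pooled. The labels give no Postn group at 30 days and no time of tamoxifen, and they do not say whether libraries came from separate animals or sorts. The p-values therefore measure the spread between these libraries, which may be technical.

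Basement membranes are thin sheets of matrix beneath endothelium and around muscle, fat and nerve cells. Each laminin is a trimer of an alpha, a beta and a gamma chain that binds cell receptors, many laminins polymerise at the cell surface, and type IV collagen forms a second, covalently linked network. Nidogens and perlecan join both networks, and fibroblasts of the heart are a known source of many of these chains. Within the type IV family the products of Col4a1 and Col4a2 assemble together in the most widespread trimer, whereas that of Col4a5 assembles either with those of Col4a3 and Col4a4 or with that of Col4a6.

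Libraries held 15207835 to 18519528 counts, and the 10 genes took 1.40 to 1.65% of them. The lowest count of any member in any library was 2078, for Col4a5, so replicate spread rather than counting error sets the precision here. Within each group the replicates differed beyond sampling noise, least so in Tcf21 P7. The chi-squared per degree of freedom between 2 replicates was 3.43 in Tcf21 P7, 18.4 in Postn P7 and 9.90 to 38.1 in Tcf21 P30. Both comparisons with Tcf21 P7 rest on that close pair, and an alternative fit sums it to 1 library. The 10 fibroblast markers summed to 35846 and 44400 normalised CPM (counts scaled to one library total) in Postn P7. The sums were 49288 and 49243 CPM in Tcf21 P7, and 39048, 49367 and 45392 CPM in Tcf21 P30. Col1a1 was at 4536 CPM or more and Dcn at 2422 CPM or more in every library. These sums do not show steady levels of single markers. Between the Tcf21 ages edgeR called 3 of the 10 higher and 3 lower at P30, beside 31.8% of all tested genes called. The 4 of largest change were Gsn (2.29 on the log2 scale), Col1a1 (-0.996), Col3a1 (-0.950) and Col1a2 (-0.943). In Postn P7 against Tcf21 P30, 3 were called higher and 4 lower, beside 24.2% of all tested genes called. The 12 endothelial markers summed to 1913 CPM in replicate 1 of Postn P7 and to 4340 in replicate 1 of Tcf21 P30, against 1110 to 1341 in the other 5 libraries. Results that rest on these replicates are given with and without both of them. The fit without both leaves 1 Postn P7 library, so its spread comes from the Tcf21 groups alone. Only the size of a difference is therefore given from it. Counts of calls from it, given near the end, carry the same limit.

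The genomic starts of the members are shown first, because those of 2 members lie in overlapping exons. Col4a1 (GRCm38 chromosome 8, 11198423 to 11312826, minus strand) and Col4a2 (11312805 to 11449287, plus strand) are protein-coding genes that lie head to head, and their annotated first exons overlap by 22 bases. The 30 bases at chr8:11312801-11312830 are given on both strands from RefSeq, with the shared exon bases in capitals.
Col4a2 strand: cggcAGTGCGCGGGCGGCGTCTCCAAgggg
Col4a1 strand: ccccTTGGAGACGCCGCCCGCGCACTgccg
A GC box, searched as GGGCGG on both strands, lies inside the shared bases at 11312812 to 11312817. The joined RefSeq windows of both genes, 522 bases from 11312555 to 11313076, held 2 matches to CCAAT, 3 to GGGCGG and 0 to TATAAA, each searched on both strands. Over all 32851 RefSeq start windows of 300 bases, 37.4% held CCAAT, 35.7% held GGGCGG and 13.6% held TATAAA. These are shares of windows with any match. They are not a measure for match counts in the longer joined region or in the shorter stretches below.

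Col4a5, Lamb1 and Lamb2 are shown for contrast, since the first changed most with age and the other 2 are alternative beta chains with different changes. The bases are those before the annotated first exon within the RefSeq window of GRCm38.p6, with CCAAT and GC box matches in capitals. They lie at chrX:141475169-141475384 for Col4a5, chr12:31265043-31265233 for Lamb1 and chr9:108479612-108479735 for Lamb2, all on the plus strand.
Col4a5: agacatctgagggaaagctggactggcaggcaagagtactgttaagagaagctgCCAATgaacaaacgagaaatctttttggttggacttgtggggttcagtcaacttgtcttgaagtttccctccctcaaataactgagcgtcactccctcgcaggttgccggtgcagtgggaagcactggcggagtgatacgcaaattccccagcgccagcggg
Lamb1: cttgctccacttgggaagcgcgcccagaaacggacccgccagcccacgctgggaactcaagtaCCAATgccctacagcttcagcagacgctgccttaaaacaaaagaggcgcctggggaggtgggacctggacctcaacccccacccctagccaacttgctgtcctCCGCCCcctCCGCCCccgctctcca
Lamb2: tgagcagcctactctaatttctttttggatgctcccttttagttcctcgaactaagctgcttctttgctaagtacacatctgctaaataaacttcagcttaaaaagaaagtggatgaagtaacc
The Col4a5 stretch held 1 CCAAT match and that of Lamb1 held 1 CCAAT match and 2 GC boxes, both read as the reverse complement. The whole Col4a5 window of 300 bases also held 1 GC box, which the printed stretch does not contain. None of the 3 motifs was found in the Lamb2 stretch, which says only that these letters are not in this window. A RefSeq window was matched for 8 of the 10 members, all but Lama4 and Lamc1.

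Per kilobase of exon, Col4a1 and Lamc1 were the most abundant members in every group. In Tcf21 P7, Col4a1 reached 513 ± 18.8 CPM per kilobase (SD, n = 2) and Lamc1, the gamma chain shared by most laminins, reached 469.6 ± 2.71 (SD, n = 2). Col4a2 followed at 327 ± 11.7 and the beta chain gene Lamb1 at 243 ± 3.43 CPM per kilobase. Lama4, Col15a1, Lamb2 and Lama2 lay between 89.0 and 115 CPM per kilobase, and Col18a1 and Col4a5 were lowest, at 26.1 ± 1.37 and 18.2 ± 0.444. In that group Col15a1 and Lamb2 did not differ beyond their spread. In Postn P7 the 4 genes from Lama4 (86.6 ± 6.62) to Lama2 (69.9 ± 7.75) each lay within the spread of its neighbour, as did Col18a1 (35.5 ± 9.27) and Col4a5 (28.6 ± 0.592). In Tcf21 P30 the bottom of the order differed, with Col4a5 at 36.3 ± 4.96 and Col18a1 at 20.1 ± 1.94 CPM per kilobase (SD, n = 3). There Lamb2, at 138 ± 16.2, stood above Col15a1, at 115 ± 15.1, with overlapping SDs. The plot of levels per exon length shows this order.

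**Figure D1:**
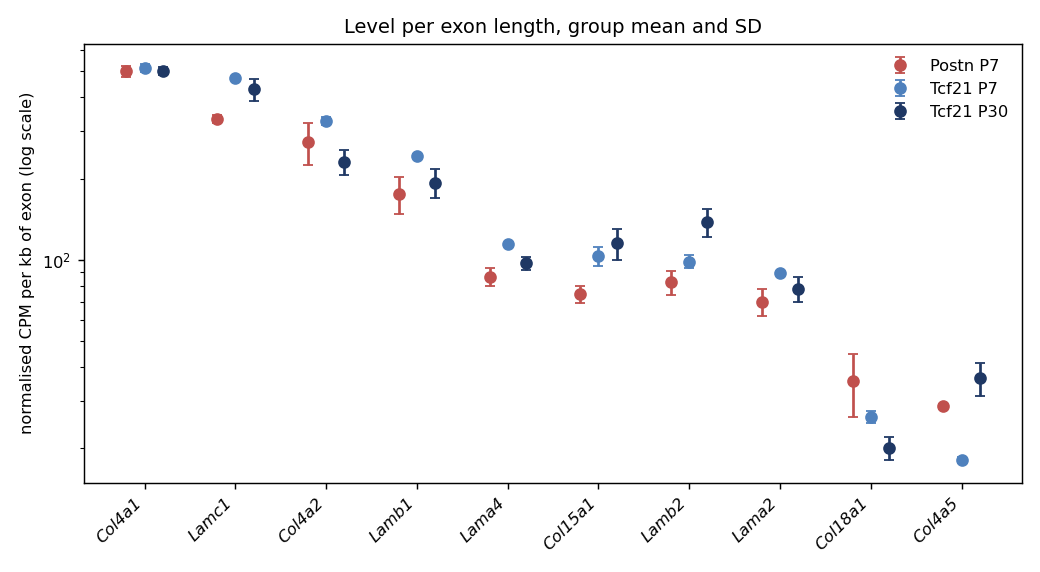
Group mean and SD of normalised CPM per kilobase of merged exon (log scale) for the 10 genes, with 2 libraries for Postn P7, 2 for Tcf21 P7 and 3 for Tcf21 P30. Col4a1 lies between 499 and 513 in every group, while Col4a5 and Col18a1 are lowest and change places between Tcf21 P7 and Tcf21 P30.

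Between day 7 and day 30 of the Tcf21 lineage, Col4a5 and Lamb2 rose and Col4a2 fell, while Col4a1 was not called, with ages that overlapped. Thus 2 members were higher and 1 lower of 10, beside 16.7% of all 17636 tested genes higher, 15.0% lower and 31.8% called in either direction. The median log2 fold change of the members was -0.16, against 0.03 over all genes. The libraries of the 2 ages did not overlap for 8 of 10 members, against 61.8% of all genes.

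Col4a5 (chromosome X, 141475385 to 141689234) encodes a chain of the minor type IV networks. It stood at 124 and 120 CPM in Tcf21 P7 and at 206, 259 and 267 CPM in Tcf21 P30. The rise of 1.00 ± 0.12 on the log2 scale, 2.00-fold, had an adjusted p of 0.000829 and was called under all 18 alternative settings. Every P30 library lay above both P7 libraries.

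Col4a2 stood at 2218 and 2109 CPM in Tcf21 P7 and at 1712, 1424 and 1450 CPM in Tcf21 P30. It fell by 0.50 on the log2 scale (SE 0.14, adjusted p = 0.0285), with no overlap of the ages. Its partner Col4a1 stood at 3928 and 3730 CPM in Tcf21 P7 and at 3818, 3804 and 3576 CPM in Tcf21 P30, so the ages overlapped. The difference of -0.04 ± 0.11 was not called (adjusted p = 0.815). The Col4a2 call was lost without either Tcf21 P7 library (adjusted p = 0.187 without replicate 1 and 0.139 without replicate 2), without Tcf21 P30 replicate 2 (0.0645) or 3 (0.102), and with the Tcf21 P7 libraries summed (0.154). Without both endothelial-rich replicates the Col4a2 difference was -0.59.

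Lamb2 (chromosome 9, 108479736 to 108490530) encodes a beta chain enriched at muscle and vascular basement membranes. It stood at 622.5 and 575 CPM in Tcf21 P7 and at 772, 952 and 794 CPM in Tcf21 P30, again with no overlap. The rise was 0.49 ± 0.13 on the log2 scale, 1.40-fold (adjusted p = 0.0214). The call was lost without Tcf21 P7 replicate 1 (adjusted p = 0.121) or 2 (0.194), without Tcf21 P30 replicate 3 (0.0502), and with the Tcf21 P7 libraries summed (0.162). Without both endothelial-rich replicates the rise was 0.55.

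The other laminin chains did not pass the test between the ages. Lamb1 (chromosome 12, 31265234 to 31329644), the alternative beta chain, stood at 2388 and 2436 CPM in Tcf21 P7 and at 1668, 2143 and 1934 CPM in Tcf21 P30, a difference of -0.33 ± 0.14 (adjusted p = 0.113). The ages did not overlap, and Lamb1 was called in 3 of 18 alternatives. Without both endothelial-rich replicates its difference was -0.24. Lama2 (chromosome 10, 26980036 to 27619758), the alpha chain of muscle laminin, differed by -0.19 ± 0.12, and Lama4 (chromosome 10, 38965515 to 39110188), the alpha chain of vascular and muscle laminins, by -0.24 ± 0.10. The adjusted p was 0.273 and 0.110. Lamc1 (chromosome 1, 153218922 to 153332786) stood at 3901 and 3869 CPM in Tcf21 P7 and at 3155, 3752 and 3713 CPM in Tcf21 P30, a difference of -0.13 ± 0.12 (adjusted p = 0.416).

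The multiplexins Col15a1 and Col18a1 encode collagens that carry glycosaminoglycans and sit at the outer face of basement membranes, and the C-terminal part of the Col18a1 product is endostatin. Col15a1 (chromosome 4, 47208161 to 47313167) stood at 692 and 617 CPM in Tcf21 P7 and at 657, 699 and 840.5 CPM in Tcf21 P30, with overlap and a difference of 0.16 ± 0.13 (adjusted p = 0.368). Col18a1 (chromosome 10, 77052178 to 77166548) stood at 190.2 and 177 CPM in Tcf21 P7 and at 156, 134 and 132 CPM in Tcf21 P30. Its ages did not overlap, and the difference of -0.38 ± 0.16 was not called (adjusted p = 0.102). Over the 18 alternatives the difference ran from -0.49 to -0.33 and was called in 6. Without both endothelial-rich replicates it was -0.46.

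**Figure D2:**
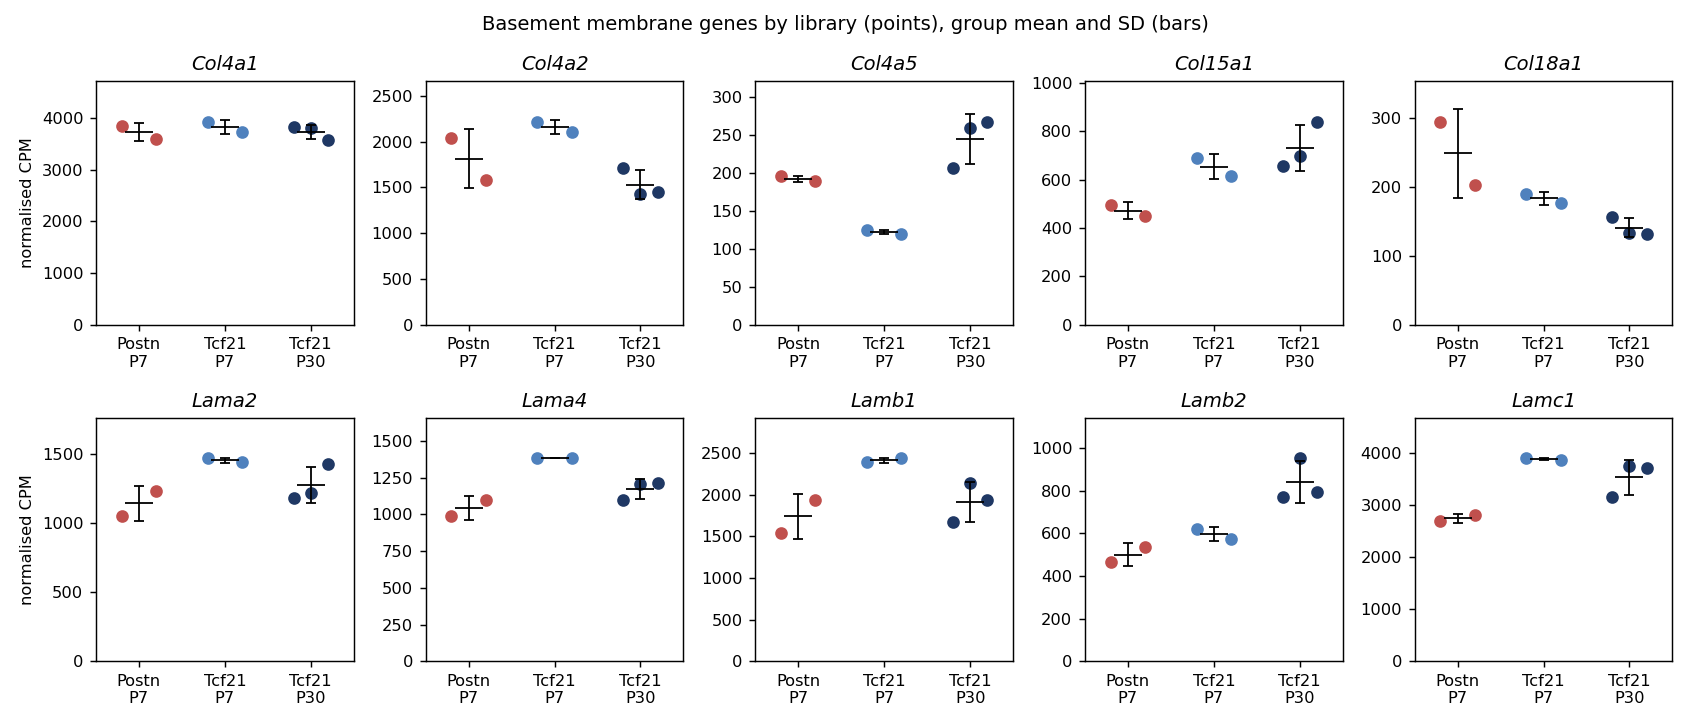
Normalised CPM of each of the 10 genes in each of the 7 libraries, grouped as Postn P7, Tcf21 P7 and Tcf21 P30, with 1 point per library and bars for the group mean and SD. Col4a5 is lowest in both Tcf21 P7 libraries (124 and 120 CPM), Lamb2 is highest in the 3 Tcf21 P30 libraries, and Col4a1 overlaps between all groups.

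At day 7, Postn-traced and Tcf21-traced cells differed in 2 members. Col4a5 was higher in Postn P7 and Lamc1 was lower, beside 6.52% of all tested genes higher, 5.49% lower and 12.0% called in either direction. The libraries did not overlap for 9 of 10 members, against 64.0% of all genes, and the median member difference was -0.30 against 0.00 over all genes. The 10 genes reached a sum of 13617 and 13642 CPM in Postn-traced cells and to 16913 and 16453 CPM in those of Tcf21 P7.

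Col4a5 stood at 195 and 189 CPM in the Postn libraries of day 7 against 124 and 120 CPM in those of Tcf21, which did not overlap. The difference was 0.66 ± 0.13 on the log2 scale, 1.58-fold (adjusted p = 0.0213). Its call was lost without Postn P7 replicate 1 (adjusted p = 0.0677) or 2 (0.0802), without Tcf21 P7 replicate 1 (0.16) or 2 (0.181), and with the Tcf21 P7 libraries summed (0.178). Without both endothelial-rich replicates it was 0.64.

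Lamc1 stood at 2690 and 2813 CPM in Postn-traced cells against 3901 and 3869 CPM in Tcf21-traced cells, with no overlap. The difference was -0.50 ± 0.13 (adjusted p = 0.0449), close to the threshold. The call was lost in 11 of 18 alternatives: with each of the 3 other scalings (adjusted p = 0.0554 to 0.0893), with the replicate block (0.0545), without either Postn P7 library (0.134 and 0.116) or Tcf21 P7 library (0.292 and 0.291), without Tcf21 P30 replicate 2 (0.0558) or 3 (0.115), and with the Tcf21 P7 libraries summed (0.29). Without both endothelial-rich replicates it was -0.46.

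The 4 other laminin chains lay below their Tcf21 P7 levels in both Postn P7 libraries, but none passed the edgeR test. Lama4 stood at 988 and 1101 CPM against 1382 in both Tcf21 P7 libraries, a difference of -0.40 ± 0.11 (adjusted p = 0.0525). Lamb1 stood at 1545 and 1932 CPM against 2388 and 2436, a difference of -0.47 ± 0.16 (adjusted p = 0.0888). Lama2 stood at 1053 and 1232 CPM against 1468 and 1439, a difference of -0.35 ± 0.13 (adjusted p = 0.126). Lamb2, at 464 and 538 CPM against 622.5 and 575, differed by -0.26 ± 0.14 (adjusted p = 0.247). In all 18 alternatives the fitted differences of the 5 laminin chains were below 0. Without Tcf21 P30 replicate 1, Lama4 (adjusted p = 0.0237), Lamb1 (0.0354) and Col15a1 (0.0312) were called lower. That library is in neither group compared and enters only the shared fit. Over all genes, calls between lineages rose in that setting too, from 2118 to 3250. Without both endothelial-rich replicates the differences of Lama4, Lamb1 and Col15a1 were -0.33, -0.32 and -0.54. DESeq2 also called Lama4 (adjusted p = 0.00815), Lamb1 (0.0324) and Col15a1 (0.0221), and limma-voom called Lama4 (0.0372). The summed fibroblast markers were also below their Tcf21 P7 values in both Postn P7 libraries, and edgeR, DESeq2 and limma-voom called 0 of those 10 markers, with 1 at an unadjusted p under 0.05 by edgeR. Whether the share of fibroblasts played a part was not tested, and in sorted bulk RNA fewer cells of a type and less RNA per cell cannot be told apart.

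Among the collagens, Col15a1 stood at 497 and 448 CPM in Postn-traced cells against 692 and 617 CPM in Tcf21-traced cells, a difference of -0.47 ± 0.14 that missed the threshold with edgeR (adjusted p = 0.0667) and passed it with DESeq2 (0.0221). Col18a1 stood at 295 and 203 CPM against 190.2 and 177 CPM. That difference, 0.44 ± 0.17, was not called (adjusted p = 0.133), and it was 0.15 without both endothelial-rich replicates. The higher of its Postn P7 values came from replicate 1. Col4a2 stood at 2041 and 1584 CPM against 2218 and 2109 CPM, a difference of -0.26 ± 0.16 (adjusted p = 0.309). Without both endothelial-rich replicates, which leaves 1 Postn P7 library, it was -0.45. Col4a1, at 3851 and 3601 CPM against 3928 and 3730, overlapped between lineages and differed by -0.04 ± 0.12 (adjusted p = 0.848).

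The comparison of Postn P7 with Tcf21 P30 changes lineage and age together, which cannot be told apart. Col18a1 was higher in Postn P7, and Col15a1 and Lamb2 were lower. That is 1 higher and 2 lower of 10, beside 11.7% of all tested genes higher, 12.5% lower and 24.2% called in either direction. The libraries did not overlap for 5 members, against 50.6% of all genes, and the median difference was -0.16 against -0.01 over all genes. The comparisons against Tcf21 P7 share its 2 libraries, and this one shares Postn P7 and Tcf21 P30 with them, so the 3 are not independent.

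Col18a1 stood at 295 and 203 CPM in Postn-traced cells against 156, 134 and 132 CPM in Tcf21 P30. The difference was 0.82 ± 0.16 on the log2 scale, 1.77-fold (adjusted p = 0.00718), and it was 0.61 without both endothelial-rich replicates. Its range over the 18 alternatives was 0.53 to 1.06 and it was called in each.

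Col15a1, the other multiplexin gene, stood at 497 and 448 CPM against 657, 699 and 840.5 CPM. The difference was -0.63 ± 0.13 (adjusted p = 0.0101), a call that was lost without Postn P7 replicate 2 (adjusted p = 0.065). Without both endothelial-rich replicates it was -0.78.

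Lamb2 stood at 464 and 538 CPM against 772, 952 and 794 CPM. The difference was -0.74 ± 0.13 (adjusted p = 0.00431) and was called in all 18 alternatives. Col4a5, at 195 and 189 CPM against 206, 259 and 267 CPM, did not overlap and differed by -0.35 ± 0.12 without passing in edgeR (adjusted p = 0.0732), as did Lamc1 by -0.36 ± 0.12 (adjusted p = 0.0602). Both were called without Tcf21 P30 replicate 1 (adjusted p = 0.00379 and 0.00924), and Lamc1 also with DESeq2 (0.0125) and limma-voom (0.0346). The remaining 5 members differed by -0.17 to 0.25 and overlapped.

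**Figure D3:**
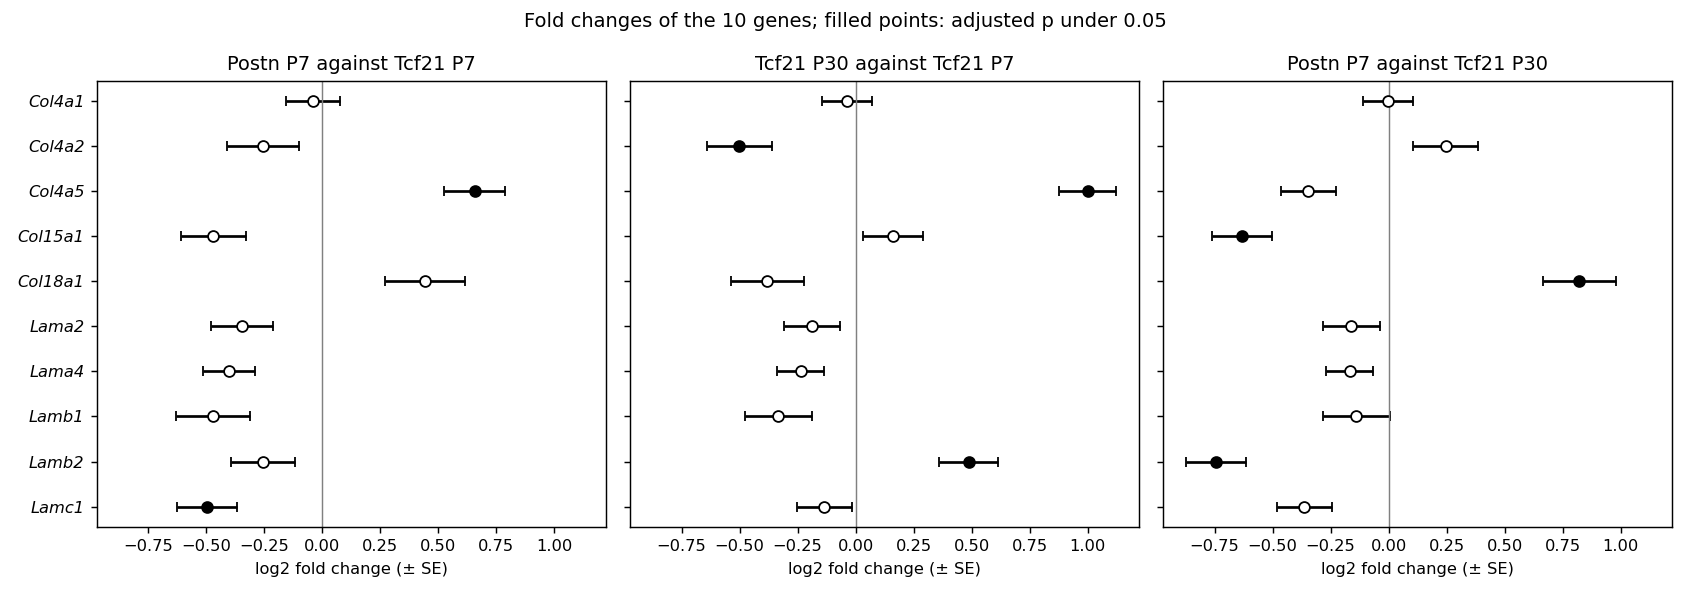
Log2 fold change and SE of the 10 genes in the 3 comparisons, positive where the first-named group is higher, with filled points for an adjusted p under 0.05. The age comparison fills Col4a2, Col4a5 and Lamb2, the lineage comparison Col4a5 and Lamc1, and the third Col15a1, Col18a1 and Lamb2, while Col4a1 lies near 0 throughout.

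Ratios of 2 chains within a library do not depend on scaling between libraries. They are ratios of CPM, not per length, and so show change between groups rather than chain stoichiometry. The ratio Lamb1/Lamb2 was 3.84 and 4.24 in Tcf21 P7, 3.33 and 3.59 in Postn P7, and 2.16, 2.25 and 2.44 in Tcf21 P30. All P30 libraries lay below all P7 libraries, by 0.82 on the log2 scale from Tcf21 P7 (two-sided exact permutation p = 0.1). The ratio Col4a1/Col4a2 was 1.77 in both Tcf21 P7 libraries, 1.89 and 2.27 in Postn P7, and 2.23, 2.67 and 2.47 in Tcf21 P30, without overlap between the Tcf21 ages (exact permutation p = 0.1).

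The ratio Col18a1/Col15a1 was 0.594 and 0.453 in Postn P7, 0.275 and 0.286 in Tcf21 P7, and 0.238, 0.191 and 0.157 in Tcf21 P30. The 3 groups did not overlap. Col4a5/Col4a1 was lowest in Tcf21 P7, at 0.0316 and 0.0321, against 0.0506 and 0.0526 in Postn P7 and 0.0540, 0.0682 and 0.0747 in Tcf21 P30. By contrast the ratio of the gamma chain to both beta chains, Lamc1/(Lamb1+Lamb2), ranged from 1.14 to 1.36, and Lama4/Lama2 from 0.852 to 0.988, with groups overlapping in all but 1 of these 6 comparisons. Over 18 exact permutation tests the smallest adjusted p was 0.36. With 2 against 2 libraries the smallest possible two-sided p is 0.333, and with 2 against 3 it is 0.1, so no ratio could pass 0.05.

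**Figure D4:**
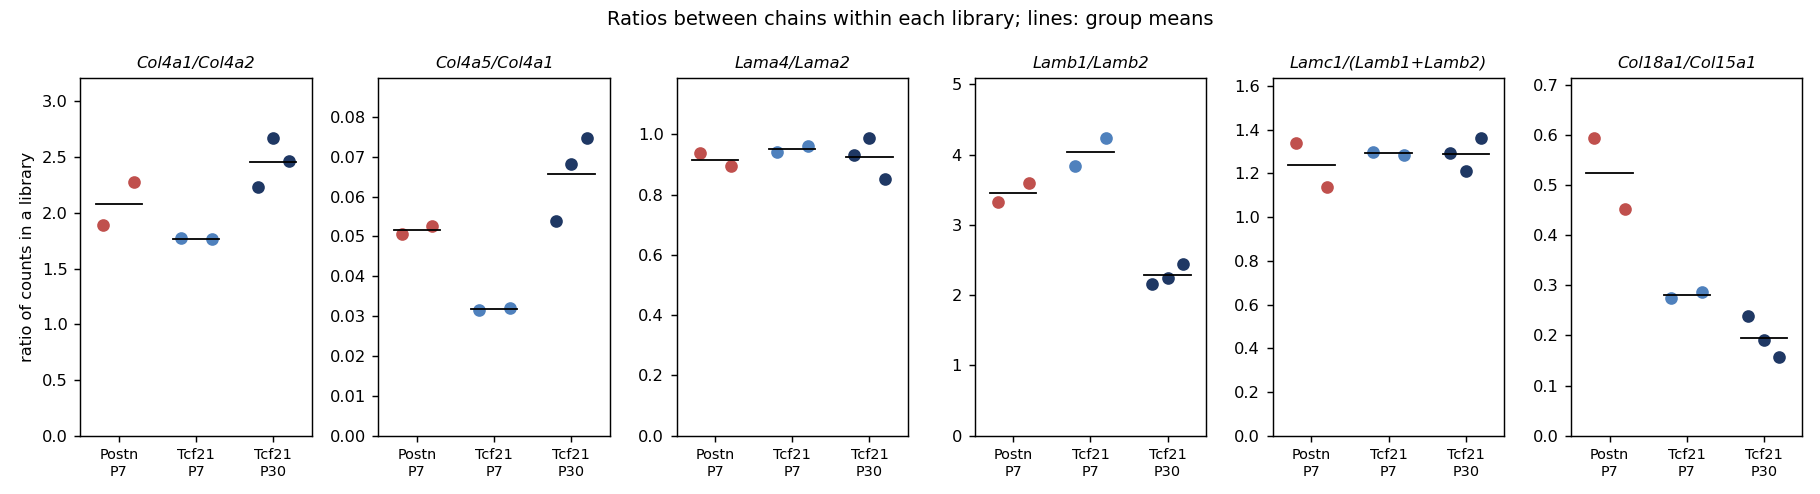
Ratio of normalised CPM of chain genes within each library, 1 point per library and a line at the group mean, for Postn P7, Tcf21 P7 and Tcf21 P30. Lamb1/Lamb2 is lowest in Tcf21 P30 (2.16 to 2.44) and Col18a1/Col15a1 is highest in Postn P7 (0.594 and 0.453).

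The remaining type IV chains, Col4a3, Col4a4 and Col4a6, were all 3 higher at P30 than at P7 in Tcf21-traced cells, beside 16.7% of all tested genes. Their median change was 1.95 on the log2 scale. Col4a3 stood at 27.7 and 23.0 CPM in Tcf21 P7 and at 116, 168 and 181 CPM in Tcf21 P30, a rise of 2.61 ± 0.21 (adjusted p = 0.000136). Col4a4 stood at 29.2 and 33.4 CPM and at 99.0, 113 and 152 CPM, a rise of 1.95 ± 0.19 (adjusted p = 0.000361). Col4a6 stood at 13.5 and 12.8 CPM and at 25.7, 27.0 and 28.5 CPM, a rise of 1.04 ± 0.12 (adjusted p = 0.000591). The partners of Col4a5 in the minor networks were thus higher together with it, and each of the 3 calls stood in all 18 alternatives. In Postn P7, Col4a6 was higher than in Tcf21 P7 by 0.51 ± 0.13 (adjusted p = 0.0411), a call lost in 12 of 18 alternatives, and the other 2 were not called. Without Tcf21 P7 replicate 2 its adjusted p was 0.245. All 3 were lower in Postn P7 than in Tcf21 P30, with Col4a3 at -2.85 ± 0.21 and Col4a4 at -1.71 ± 0.19. Col4a6, at -0.53 ± 0.12 (adjusted p = 0.0129), lost that call without Postn P7 replicate 1 (0.054) or 2 (0.0748) and without Tcf21 P30 replicate 3 (0.0628).

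Among laminin chain genes outside the 10, Lamc3, which encodes a gamma chain, was of low level beside the members and higher at P30 than at P7 in the Tcf21 lineage. It stood at 0.625 and 1.10 CPM at P7 and at 4.86, 5.64 and 4.78 CPM at P30, a rise of 2.56 ± 0.35 (adjusted p = 0.00127) that was called in all 18 alternatives. Between the lineages at P7 its difference of 1.28 ± 0.37 was not called (adjusted p = 0.0594). It was lower in Postn P7 than in Tcf21 P30 (-1.28 ± 0.31, adjusted p = 0.0205). That last call was lost without either Postn P7 library (adjusted p = 0.051 without replicate 1 and 0.11 without replicate 2) and without Tcf21 P30 replicate 2 (0.0648) or 3 (0.0556).

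Of 15 genes for linkers and associated proteins, 2 rose and 5 fell with age in the Tcf21 lineage, with a median of -0.24. Over all tested genes 16.7% were higher and 15.0% lower. Ntn4, encoding netrin-4, a laminin-binding protein, rose from 53.7 and 57.4 CPM to 201, 258 and 234 CPM, by 2.06 ± 0.13 on the log2 scale (adjusted p = 5.02e-05). Pxdn, encoding peroxidasin, which crosslinks type IV collagen, stood at 1782 and 1695 CPM in Tcf21 P7 and 547, 489 and 471 CPM in Tcf21 P30, and fell by 1.79 on the log2 scale (adjusted p = 4.6e-05). Frem1 and Frem2, matrix proteins of embryonic basement membranes, differed by -2.82 ± 0.22 and -3.21 ± 0.57, Frem2 at under 10 CPM in every library.

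Between the lineages at P7, 3 of the 15 were lower in Postn P7 and none was higher, beside 5.49% and 6.52% of all tested genes. The 3 lower genes were Ntn4 (-0.79 ± 0.13, adjusted p = 0.0141), Hspg2, which encodes perlecan (-0.67 ± 0.18, adjusted p = 0.0461), and the nidogen gene Nid2 (-0.36 ± 0.09, adjusted p = 0.0427). Leaving out Postn P7 replicate 2 or either Tcf21 P7 library ended each of these calls, with adjusted p of 0.0715, 0.11 and 0.142 for Ntn4, of 0.171, 0.237 and 0.207 for Hspg2 and of 0.135, 0.32 and 0.267 for Nid2. In all, the Hspg2 call was lost in 7 of 18 alternatives, also with upper-quartile factors, with library size alone and without Tcf21 P30 replicate 3 (adjusted p = 0.0697). The Nid2 call was lost in 12 of 18, among them each of the 3 other scalings and the fit without the low-count filter. It was also lost without Postn P7 replicate 1. Without Tcf21 P30 replicates 2 and 3 the adjusted p of Nid2 was 0.0517 and 0.122. In Postn P7 against Tcf21 P30, 5 of the 15 were higher and 5 lower, beside 11.7% and 12.5% of all tested genes. The 4 of largest difference there were Frem2 (3.56 ± 0.56), Frem1 (2.91 ± 0.22), Ntn4 (-2.84 ± 0.13) and Smoc1 (-2.01 ± 0.44), a calcium-binding matrix protein gene.

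Receptor genes were compared in the same way. Over all tested genes 31.8% were called between the Tcf21 ages, 12.0% between lineages and 24.2% in Postn P7 against Tcf21 P30. Of 11 receptors, 1 rose and none fell with age in the Tcf21 lineage. It was Ddr2, a collagen receptor gene, at 298 and 310.2 CPM in Tcf21 P7 and 440, 528 and 566 CPM in Tcf21 P30 (0.75 ± 0.13, adjusted p = 0.00429). Without Tcf21 P7 replicate 1 its adjusted p was 0.0588. Between the lineages at P7 edgeR called 0 of 11, with Itgb1, the shared integrin beta chain and the most expressed, at 1226 and 1312 CPM in Postn-traced cells against 1092 and 1138 CPM (0.19 ± 0.10, adjusted p = 0.255). None of the 11 had an unadjusted p under 0.05 there, and DESeq2 and limma-voom called none. In Postn P7 against Tcf21 P30, Ddr2 (-0.77 ± 0.13) and Dag1 (-0.37 ± 0.11, adjusted p = 0.0395), which encodes the laminin receptor dystroglycan, were lower. DESeq2 and limma-voom each called 4 of the 11 there. Ddr2 is also among the fibroblast markers used here. The Dag1 call was lost in 12 of 18 alternatives, among them the removal of each library other than Tcf21 P30 replicate 1 (adjusted p = 0.0845 to 0.178).

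Across the 7 libraries, the members fell into different patterns. Correlations were taken on log2 CPM with 10628 other genes of at least 10 CPM. They describe 7 libraries that share groups and scaling, and carry no test. Lama4 ran most closely with Lamb1 (r = 0.95), with Lama2 (0.92) and with Lamc1 (0.91), and Lama4 took place 15 among the genes most like Lama2, which took place 120 for Lama4. Lamb2 did not follow its alternative Lamb1 (0.20) and ran opposite to Col18a1 (-0.92). Col4a1 and Col4a2, whose first exons overlap, correlated at 0.61. Col4a2 took place 187 among the genes most like Col4a1, and Col4a1 place 2254 among those most like Col4a2. Col4a1 ranged only from 3576 to 3928 CPM with overlapping groups, so its correlations mostly follow the spread within groups. Col4a2 ran opposite to Col4a5 (-0.89), and Col15a1 to Col18a1 (-0.78).

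The 3 genes most like each member are named without further reading. For Col4a1 they were Dnaaf5, Pdzd9 and Prpf31 (0.93 to 0.95), and for Col4a2 Naca, Gm15419 and Tnnc1 (0.99 each). Gm15419 is annotated across Col4a2 and shares 43 exon bases with it, so reads of the 2 may not be separate. For Col4a5 they were Arhgap42, Gm26565 and Gm43361 (0.99 each), for Col15a1 Clip2, Reep5 and Mst1r (0.98 each), and for Col18a1 Socs5, Arid2 and Thbs4 (0.97 to 0.98). For the laminin chains they were Gm9913, 5830462I19Rik and Anpep with Lama2 (0.96 to 0.98), Disp1, Abca9 and Rab32 with Lama4 (0.99 each), Particl, Pik3r2 and Zxdc with Lamb1 (0.98 to 0.99), Lamp1, Pcca and Gm40578 with Lamb2 (0.99 each), and Thra, Sirpa and Ubtf with Lamc1 (0.98 to 0.99). Lama2 shares 631 exon bases, 3.86% of its exon length, with Gm48084.

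Endothelial cells, pericytes, smooth muscle cells and Schwann cells also make basement membranes, and their markers are given beside the members. Over all tested genes 12.0% were called between lineages, 31.8% between the Tcf21 ages and 24.2% in Postn P7 against Tcf21 P30. The 9 pericyte markers summed to 2269 and 1659 CPM in both Postn libraries, to 1139 and 1087 CPM in those of Tcf21 P7, and to 1586, 850 and 905 CPM in Tcf21 P30. All 9 were higher in Postn P7 than in Tcf21 P7, by 0.32 to 1.49 on the log2 scale (median 1.19), and edgeR called 1. Libraries did not overlap for 8 of 9, against 64.0% of all genes. In each of the other 2 comparisons edgeR called 1 higher, where DESeq2 called 2. In Postn P7 and in Tcf21 P30 the pericyte sum and the levels of Col18a1 and Col4a2 were each highest in replicate 1. Of 12 endothelial markers edgeR called 0 between lineages and 0 between ages, with 0 at an unadjusted p under 0.05. DESeq2 had 1 at an unadjusted p under 0.05 between ages. In Postn P7, 1 was called lower than in Tcf21 P30. The median log2 fold change of the 12 was 0.43 between lineages and 0.90 between ages, where it ranged from -0.25 to 2.10. The lack of calls therefore does not show equal levels. The 7 smooth muscle markers summed to 597 to 1204 CPM. Of these edgeR called 0 in each comparison, with 1 at an unadjusted p under 0.05 between ages, where DESeq2 and limma-voom each called 1. The 6 Schwann cell markers summed to 13.5 to 52.3 CPM, and 2 were higher in Postn P7, and 2 in Tcf21 P30, than in Tcf21 P7. Macrophage markers summed to 1142 and 1151 CPM in Tcf21 P7 and to at most 607 CPM in the other 5 libraries, and 8 of 10 were lower in Postn P7 and 8 of 10 in Tcf21 P30 than in Tcf21 P7. The 10 cardiomyocyte markers summed to 1542 and 648 CPM in Postn P7, to 1267 and 1122 CPM in Tcf21 P7 and to 1381, 735 and 781 CPM in Tcf21 P30. The 6 epicardial and mesothelial markers summed to 64.7 and 6.41 CPM, to 24.8 and 20.5 CPM and to 17.9, 1.97 and 1.92 CPM in the same order. The 6 erythroid markers summed to 366 and 68.0 CPM, to 496 and 478 CPM and to 619.6, 181 and 291 CPM. Within Postn P7 and within Tcf21 P30 replicate 1 was thus highest in all 3 lists. Of these markers edgeR called 0 in each comparison. At an unadjusted p under 0.05 were 3 cardiomyocyte markers between ages, where DESeq2 called 2 and limma-voom 1, and 1 epicardial marker in Postn P7 against Tcf21 P30, where DESeq2 called 1. DESeq2 also called 1 cardiomyocyte marker between lineages. No marker was at 0 in all libraries. The part of these cells in the members' differences was not tested beyond leaving out both endothelial-rich replicates and the fit with the endothelial markers as a covariate.

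**Figure D5:**
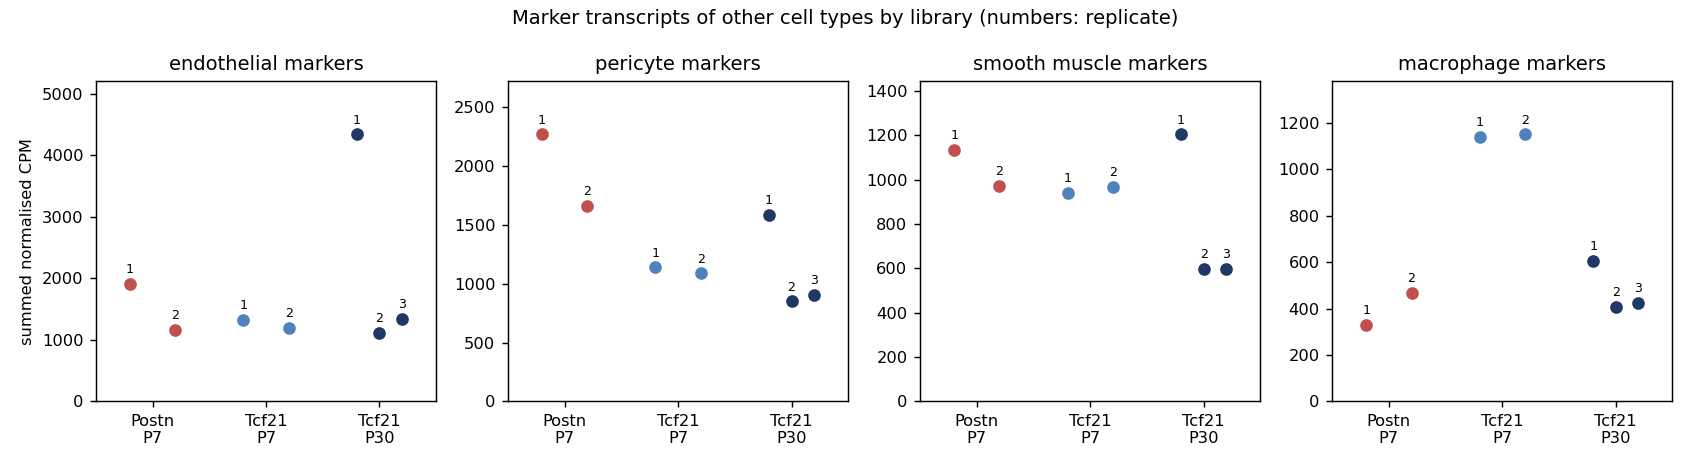
Summed normalised CPM of endothelial, pericyte, smooth muscle and macrophage markers in each library, with replicate numbers beside the points. Replicate 1 of Tcf21 P30 is highest in endothelial markers (4340 CPM), both Postn P7 libraries are highest in pericyte markers, and both Tcf21 P7 libraries are highest in macrophage markers.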

How the data were processed

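RNA of sorted cardiac GFP+ cells was sequenced on an Illumina HiSeq in 7 libraries of 3 groups. The deposited table gives raw read counts for each gene symbol and library, which the authors had not normalised. Reads were aligned with STAR to GRCm38, per the submitters' processing notes. The version of STAR, the annotation, the program that counted reads and its strand setting are not given in the sources used here. Without a known strand setting, reads of overlapping genes on opposite strands, such as Col4a1 and Col4a2, may not be separate. Every column of values belonged to a labelled library. Of 54735 symbols, 21563 had no count, and 54106 were matched to GENCODE M21, the source of coordinates and merged exon lengths.

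These counts were tested with edgeR 4.0.16 under R 4.3.3. filterByExpr left 17636 genes, libraries were scaled by TMM, and all 7 were fitted together by the robust quasi-likelihood method, with 1 mean for each group. The F-test gave p-values, adjusted by Benjamini-Hochberg over all genes with a threshold of 0.05. The SE is derived from F, as the size of the log2 fold change over the square root of F. Levels are TMM-normalised CPM, and a fold change is positive where the first-named group is higher. Ratios of chains were compared by two-sided exact permutation tests over libraries. The procedure was tested on simulated data. RefSeq start windows hold 250 bases before and 50 bases from the start.

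The members and the other gene lists were chosen with earlier results of these data known. Of each other list the text names at most 4 called genes of largest change or, where none is called, the most expressed gene, and for similar patterns the 3 genes of highest correlation. Some results of the list of other laminin chains are not reported here. In all 18 alternatives were run: 3 scalings, no low-count filter, DESeq2 1.42.0, limma-voom (limma 3.58.1), a fit of 2 groups, a replicate block, each library left out, the Tcf21 P7 libraries summed, both endothelial-rich libraries left out, and an endothelial covariate. Leaving out a P7 library, summing the Tcf21 P7 libraries or leaving out both endothelial-rich libraries leaves 1 library in a P7 group. In such fits that group adds nothing to the estimate of spread.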

Additional observations from a re-analysis of the deposited data

How the results depend on the processing

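The count of members called between lineages at P7, 2, was 1 with DESeq2 size factors, 1 with upper-quartile factors, 1 with library size alone, 1 with the replicate block, 6 without the low-count filter, 5 with the DESeq2 test, 5 with only the 2 groups compared, 0 with the Tcf21 P7 libraries summed, 6 without both endothelial-rich libraries and 7 with the endothelial covariate, and 0 to 5 with 1 library left out. edgeR called 0 members in 5 settings, where 1 to 6 members had an unadjusted p under 0.05. For the ages, 3 became 5 without the filter, 1 with the summed libraries, 5 without both endothelial-rich libraries, 5 with the covariate, and 1 to 4 with 1 library left out. For Postn P7 against Tcf21 P30, 3 became 5 without both endothelial-rich libraries, 7 with the covariate, and 2 to 5 with 1 library left out.

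Over all genes the 2118 calls between lineages became 3442 without the filter, 123 with the summed libraries, 3750 without both endothelial-rich libraries, 4190 with the covariate, and 111 to 3250 with 1 library left out. The 5604 calls between ages became 2463 with the summed libraries and 2418 to 6063 with 1 library left out, and the 4276 of the third comparison 2810 to 5072. Library size alone moved the median of all genes by 0.11 in both comparisons with Postn P7 and by 0.01 between ages, and split the lineage calls into 1741 higher and 472 lower, against 1149 and 969. In the third comparison it split them into 2802 and 1725, against 2070 and 2206. With the covariate, calls over all genes became 7155 between ages and 6094 in the third comparison.

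With the replicate block the ages kept a count of 3 members, as did the third comparison, and all-gene counts were 1556, 4553 and 3348. The replicate block ended the lineage calls of Lamc1, Col4a6 (adjusted p = 0.0746) and Nid2 (0.0687), and the calls of Col4a6 (0.0576), Lamc3 (0.0574) and Dag1 (0.0832) in the third comparison. It changed no other call of a named gene. The labels do not say whether same-numbered libraries share an origin. Their deviations from group means correlated at 0.11 between both P7 groups, at 0.50 and 0.57 between Postn P7 and Tcf21 P30, and at 0.14 and 0.09 between the Tcf21 ages.

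Differences near 0 changed sign. Col4a1 between lineages was 0.0753 with library size alone and -0.0941 to 0.00807 with 1 library left out, and between ages -0.0672 to 0.00322. In the third comparison it was 0.00727 with DESeq2 size factors, 0.0243 with upper-quartile factors, 0.105 with library size alone, 0.0149 without the filter, 0.00729 with DESeq2, 0.0124 with 2 groups, 0.00651 with summed libraries, 0.00809 with the covariate, and -0.0528 to 0.0392 with 1 library left out. Lamb1 there ranged from -0.316 to 0.0118. With 1 library left out, log2 ratios of Lama4/Lama2 ranged from -0.0654 to 0.0412 there and from -0.0949 to 0.0118 between ages. Those of Lamc1/(Lamb1+Lamb2) ranged from -0.177 to 0.0568 there, -0.180 to 0.0533 between lineages and -0.0438 to 0.0399 between ages. The causes were not tested. Every member had at least 2078 counts in each library.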

Other observations

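Genes for collagen folding and for turnover of the matrix were examined beside the chains. Their counts stand beside 31.8% of all tested genes called between the Tcf21 ages, 12.0% between lineages and 24.2% in Postn P7 against Tcf21 P30. Of 11 folding and secretion genes, 1 was higher and 1 lower at P30 than at P7 in the Tcf21 lineage. P4ha1, a prolyl hydroxylase subunit, stood at 172 and 176 CPM in Tcf21 P7 and at 235, 277 and 255 CPM in Tcf21 P30 (0.56 ± 0.10, adjusted p = 0.00425), and Crtap, a cartilage-associated partner of prolyl hydroxylation, at 275 and 269 CPM and at 164, 209.8 and 182 CPM (-0.56 ± 0.12, adjusted p = 0.0109). Both calls were lost without either Tcf21 P7 library, with adjusted p of 0.071 and 0.0587 for P4ha1 and of 0.103 and 0.0894 for Crtap, and that of Crtap also without Tcf21 P30 replicate 3 (0.0547). Serpinh1, the collagen chaperone, was lower in Postn P7 than in Tcf21 P7, at 1159 and 1144 CPM against 1634 in both (-0.51 ± 0.11, adjusted p = 0.0246). That call was lost with upper-quartile factors (adjusted p = 0.052), without any 1 of the 4 P7 libraries (0.0694 to 0.224) and without Tcf21 P30 replicate 3 (0.0763). Against Tcf21 P30, Plod2, a lysyl hydroxylase gene, was higher in Postn P7 (0.63 ± 0.11), and P4ha1 (-0.76 ± 0.10), Plod1 (-0.50 ± 0.09) and Plod3 (-0.40 ± 0.11) were lower. The Plod3 call was lost in 8 of 18 alternatives, with adjusted p up to 0.162 without Postn P7 replicate 1.

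Of 9 turnover genes, 3 rose and 1 fell with age. Mmp3, the stromelysin gene, stood at 1.53 and 0.923 CPM in Tcf21 P7 and at 126, 174 and 133 CPM in Tcf21 P30, a rise of 6.87 ± 0.29 on the log2 scale (adjusted p = 2.08e-05). The inhibitor genes Timp3 (1.29 ± 0.10) and Timp1 (1.15 ± 0.14) rose too. Mmp14, encoding a membrane-bound metalloprotease, stood at 1032 and 1030.03 CPM and at 426, 578 and 520.3 CPM, and fell by 1.02 on the log2 scale (adjusted p = 0.00143). These 4 age calls stood in all 18 alternatives. Between the lineages edgeR called none of the 9, and the most expressed, Mmp2, differed by -0.38 ± 0.18 (adjusted p = 0.186). Of the 9, 3 had an unadjusted p under 0.05, and DESeq2 called 2 and limma-voom 1. In Postn P7 against Tcf21 P30, edgeR called 1 of the 9 higher and 6 lower, beside 11.7% and 12.5% of all tested genes. Mmp3 (-7.22 ± 0.30), Timp1 (-1.33 ± 0.14) and Timp3 (-1.19 ± 0.10) were lower there, and Mmp14 (0.95 ± 0.14) was higher.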
